A study of Mus musculus with 16 samples.

Results

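The genes described here are the protein genes of the mouse mitochondrial genome. Of 10 named genes, 7 had a row in each of the 3 count tables, namely mt-Nd1, mt-Nd2, mt-Co1, mt-Nd4, mt-Nd5, mt-Nd6 and mt-Cytb. They are defined by chromosome (MT) and gene name, among 32826 genes listed in all. The other 3, mt-Co2, mt-Atp6 and mt-Co3, were not analysed here. The libraries came from mouse E14 embryonic stem cells kept on gelatine in serum with leukaemia inhibitory factor, the GSK3 inhibitor CHIR99021 and the MEK inhibitor PD0325901. Every line, WT included, had received auxin (IAA) for 24 h, a plant hormone that makes proteins tagged with an auxin-inducible degron (AID) break down where Tir1 is present. RNA made during the last 15 min was labelled with 4-thiouridine (4sU), a uridine analogue, and pulled out on beads. There were 14 such libraries, and 2 libraries of total RNA from WT cells.

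WT meant one plain line (replicate 1) and one line that overexpresses Tir1, the auxin-responsive part of a ubiquitin ligase, and the biotin ligase BirA (replicate 2). Both were sequenced in each of 3 projects. Project 1 added AID-Tada3 and the total RNA, project 2 added AID-Yeats2 and Supt7l-/-, and project 3 added AID-Zzz3, each as 2 independent clones. The labels do not say whether the degron clones carry Tir1 and BirA. Tada3 is part of the acetyltransferase module shared by the nuclear coactivators SAGA and ATAC, Supt7l belongs to SAGA, and Yeats2 and Zzz3 belong to ATAC. Each pair of replicates is 2 clones or 2 lines of 1 culture type, so p-values measure the spread between these libraries. Amounts of RNA per mitochondrion, of mitochondria per cell and of cells of a given type cannot be told apart in bulk libraries.

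Mouse gene counts summed to between 8268061 and 15994518 per 4sU library and to 4903998 and 6378707 in total RNA. Counts of single members were 3771 to 34992 in 4sU libraries and 18 to 27547 in total RNA. CPM is the usual read count scaled to library depth. In AID-Tada3 clones the Tada3 gene had 12.0 and 10.8 CPM of mouse counts against 31.4 and 23.6 in WT, and in AID-Zzz3 clones Zzz3 had 291 and 302 against 426 and 441. Yeats2 had 109 and 189 in its clones against 237 and 252, while Supt7l had 8.98 and 14.2 in Supt7l-/- clones against 13.7 and 14.1. Degron tagging acts on protein, and the part of Supt7l that was removed is not given in the sources used here, so whole-gene counts do not check these labels. The 7 embryonic stem cell markers measured summed to 2409 to 2955 CPM in the 4sU libraries. Markers of primitive endoderm (5 genes), trophoblast (4), neural cells (2) and fibroblasts (4) summed to at most 21.3, 18.5, 21.4 and 10.6 CPM.

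Mitochondrial DNA is a small circle whose strands are each copied by the mitochondrial RNA polymerase Polrmt into one long RNA. Enzymes then cut this RNA at the transfer RNAs that sit between the messages. The heavy-strand transcript holds the ribosomal RNAs and nearly all messages, which encode subunits of respiratory complexes I, III and IV and of the ATP synthase. The light-strand transcript holds a single message, mt-Nd6, and is otherwise mostly degraded. Stem cells draw much of their ATP from glycolysis but keep mitochondrial transcription running. SAGA and ATAC act on nuclear chromatin, so these genes lie outside the DNA they are known to bind.

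In mm10 coordinates on chromosome MT, the heavy-strand genes, listed on the + strand, were mt-Nd1 (2751 to 3707), mt-Nd2 (3914 to 4951), mt-Co1 (5328 to 6872), mt-Nd4 (10167 to 11544), mt-Nd5 (11742 to 13565) and mt-Cytb (14145 to 15288). mt-Nd6 is on the - strand, from 13552 to 14070. Each is a single exon. Since 4sU enters RNA in place of uridine, the U content sets how many places a transcript offers to the label. U made up 43.7% of mt-Nd6, with 28.1% G and 5.97% C, and 27.4% to 31.3% of the other 9 genes. The first 120 bases of 3 genes show the contrast, with the T of the DNA (U in RNA) in capitals. They are from the GENCODE M21 transcripts (mm10), 5′ to 3′, at MT:13951-14070 (- strand), MT:3914-4033 (+ strand) and MT:5328-5447 (+ strand).
mt-Nd6: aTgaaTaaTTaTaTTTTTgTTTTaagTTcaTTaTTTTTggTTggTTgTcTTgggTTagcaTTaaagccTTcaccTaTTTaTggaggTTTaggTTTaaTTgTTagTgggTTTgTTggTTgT
mt-Nd2: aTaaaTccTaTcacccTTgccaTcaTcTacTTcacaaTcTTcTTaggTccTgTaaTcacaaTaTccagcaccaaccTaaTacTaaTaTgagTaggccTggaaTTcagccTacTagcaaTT
mt-Co1: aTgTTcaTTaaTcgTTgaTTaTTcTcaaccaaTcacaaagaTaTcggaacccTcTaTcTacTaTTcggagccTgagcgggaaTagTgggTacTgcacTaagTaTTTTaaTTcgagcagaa
These stretches held 60, 35 and 36 T.

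mt-Nd5 and mt-Nd6 face each other and share their last 14 bases, shown in capitals within the last 50 bases of each gene, at MT:13516-13565 (+ strand) and MT:13552-13601 (- strand). They are printed because the strand of a read decides which gene it counts for.
mt-Nd5: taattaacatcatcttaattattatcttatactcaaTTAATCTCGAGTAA
mt-Nd6: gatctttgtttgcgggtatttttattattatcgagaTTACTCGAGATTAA
The capitals of one line are the reverse complement of those of the other. Library preparation kept strand, per the labels' protocols, but the strand setting of the counting is not given in the sources used here. Without it, mt-Nd6 reads cannot be told from reads of the heavy-strand RNA that runs antisense through the gene.

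Nuclear DNA holds copies of mitochondrial genes. Among the 7 genes, 51.1% of the 50-base windows of mt-Co1 and 62.2% of those of mt-Nd4 occurred exactly in a nuclear transcript of GENCODE M21. For mt-Nd2 and mt-Nd5 the share was 8.19% and 7.61%, and for mt-Nd1, mt-Nd6 and mt-Cytb it was 0%. Bases 1 to 876 of mt-Nd4 were identical to Gm28439, and bases 1054 to 1545 of mt-Co1 matched Gm29216 except at 6 of 492 positions. For mt-Co2, mt-Atp6 and mt-Co3 the shares were 100%, 99.5% and 99.9%. How reads that fit both places were counted is not given in the sources used here, so levels of mt-Co1 and mt-Nd4 are uncertain.

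Newly made RNA was first set against total RNA in WT cells, which compares what is being transcribed with what is present. In total RNA mt-Co1, a catalytic subunit of cytochrome oxidase, held most of the counts of the 7 genes. In 4sU RNA the counts were spread far more evenly, and mt-Nd6 was nearly absent from total RNA but ample in new RNA. All 7 differed, 6 of them higher in 4sU RNA and mt-Co1 lower. CPM of the members is taken over the effective library size by TMM, a scaling that centres most genes on no change. Of 14494 genes tested, 30.4% were called higher and 33% lower (edgeR's quasi-likelihood test with Benjamini-Hochberg adjustment over all genes, threshold 0.05), so a call was common in this comparison and the sizes carry the description.

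mt-Nd6, the only light-strand message and a subunit of complex I, had 3.50 CPM (18 counts) and 6.31 CPM (41 counts) in total RNA of the plain and the Tir1/BirA line, and 393 and 574 CPM in 4sU RNA. The groups lie far apart. The fitted log2 fold change was 6.59 ± 0.33 (SE, n = 2 against 2, edgeR adjusted p = 1.27e-05), or 96.2-fold. mt-Nd2, a complex I subunit, had 56.2 and 62.8 CPM in total RNA and 686 and 1257 CPM in 4sU RNA, a log2 fold change of 4.03 ± 0.31 (adjusted p = 4.90e-05).

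mt-Nd5, another complex I subunit, had 157 and 182 CPM in total RNA against 886 and 1574 CPM, with a log2 fold change of 2.86 ± 0.28 (adjusted p = 0.000130). mt-Nd4, also of complex I, had 96.3 and 106 CPM against 459 and 791 CPM, with 2.63 ± 0.27 (adjusted p = 0.000143). For these genes the lower 4sU library was more than 4 times the higher total RNA library. mt-Cytb, the mitochondrial subunit of complex III, had 264 and 448 CPM against 948 and 1615 CPM, a log2 fold change of 1.85 ± 0.34 (adjusted p = 0.00300). mt-Nd1, a complex I subunit, had 721 and 865 CPM against 1123 and 1810 CPM, with 0.89 ± 0.24 (adjusted p = 0.0138). Neither of these pairs overlapped between total and 4sU RNA. Of the 7, mt-Nd1 was the gene whose call ended when a library was left out, to 0.54 without the Tir1/BirA 4sU library and to 0.69 without the plain total RNA library.

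mt-Co1 went the other way, with 3743 and 4241 CPM in total RNA and 518 and 795 CPM in 4sU RNA. Its log2 fold change was -2.60 ± 0.24 (adjusted p = 8.33e-05). It made up 74.3% (95% Wilson interval 73.7% to 74.8%) and 71.7% (71.3% to 72.2%) of the counts of the 7 genes in total RNA, and 10.3% and 9.45% in 4sU RNA. mt-Nd6 made up 0.0695% (0.0439% to 0.110%) and 0.107% (0.0787% to 0.145%) in total RNA, and 7.84% and 6.82% in 4sU RNA. Intervals cover counting error only, since reads are not independent molecules. Scaled to the spike-in cells, the median of all genes moved to a log2 fold change of 2.34, and mt-Co1 was then at -0.33 ± 0.19 with its call ended (adjusted p = 0.128), below that median, while the other 6 genes were at 3.16 to 8.88 and called higher, as were 81.5% of all genes. Total RNA had undergone removal of ribosomal RNA and 4sU RNA had not, and the 4sU RNA was fragmented before purification, per the labels' protocols. Their part in these differences was not tested.

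**Figure D1:**
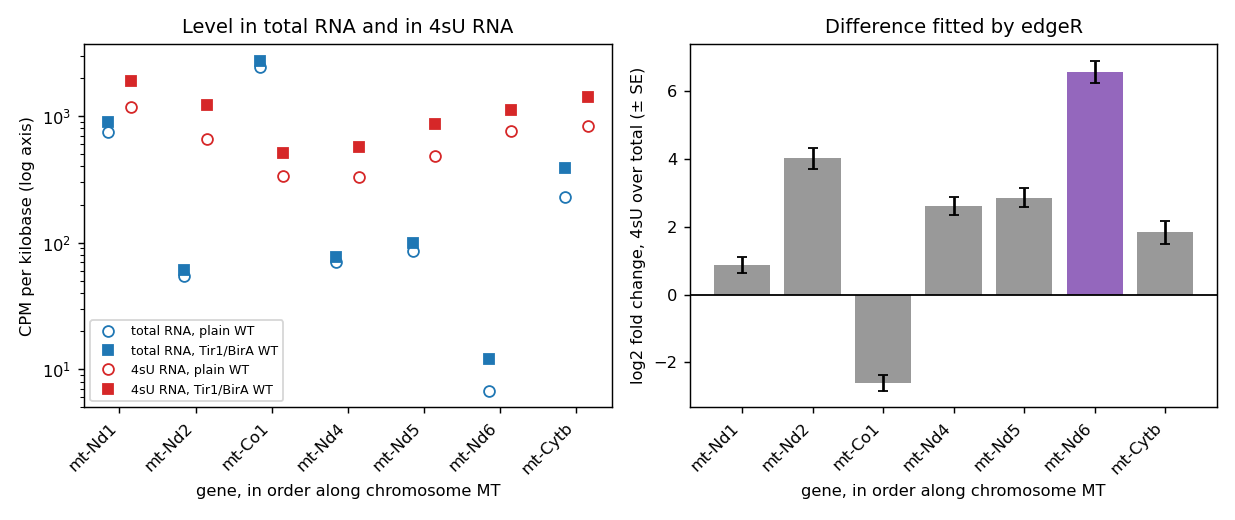
Left, level of each gene in CPM per kilobase (log axis) in the 2 total RNA and 2 4sU libraries of WT cells of project 1, by line. Right, the log2 fold change of 4sU over total RNA with its standard error from edgeR. mt-Nd6 has the tallest bar, at 6.59, and mt-Co1 is the only one below 0, at -2.60.

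Per kilobase of gene, total RNA spanned a 273-fold range and 4sU RNA a 3.60-fold range. The order in total RNA was mt-Co1 (2584 ± 228 CPM per kilobase, SD, n = 2), mt-Nd1 (829 ± 106), mt-Cytb (311 ± 114), mt-Nd5 (92.9 ± 9.89), mt-Nd4 (73.4 ± 5.02), mt-Nd2 (57.3 ± 4.50) and mt-Nd6 (9.45 ± 3.83). No neighbours in that order overlapped. In 4sU RNA the order was mt-Nd1 (1532 ± 508), mt-Cytb (1120 ± 413), mt-Nd2 (936 ± 389), mt-Nd6 (931 ± 247), mt-Nd5 (674 ± 266), mt-Nd4 (453 ± 170) and mt-Co1 (425 ± 127). There each gene overlapped its neighbours, since the Tir1/BirA line was higher for every gene. The order was otherwise the same in both lines, but mt-Nd2 and mt-Nd6 changed places, as did mt-Nd4 and mt-Co1. Counting only the windows with no nuclear copy as length, an alternative added after the data were seen, gave ranges of 523-fold in total RNA and 2.15-fold in 4sU RNA, and moved mt-Nd4 from place 6 to place 2 in 4sU RNA and from place 5 to place 4 in total RNA. Among the 6 heavy-strand genes the order of the log2 fold changes was nearly the reverse of the order of U content (Spearman rho -0.94 over 6 genes measured in the same 4 libraries, as a description). mt-Nd2, at 27.4% U, had the highest of the 6 and mt-Co1, at 30.6%, the lowest. mt-Nd6, with the most U of all, stood outside that order, and over the 7 genes rho was -0.21.

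The other rows of chromosome MT were 2 ribosomal RNAs and 15 transfer RNAs. Most had few or no counts in total RNA and passed the filter on low counts through 4sU RNA alone, so their counts are given without a test. Transfer RNA counts summed to 16 and 20 in total RNA and to 857 and 1372 in 4sU RNA of the same lines. Ribosomal RNA was scarce in every library, with 0 counts of mt-Rnr1 in both total RNA libraries, 36 and 58 in 4sU RNA, and 4 and 31 against 37 and 71 for mt-Rnr2. Removal of mitochondrial ribosomal RNA, named in the protocol for total RNA, bears on these rows.

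The nuclear genes that transcribe, process and translate mitochondrial RNA come from lists drawn up with earlier results of these data known. In the comparison of 4sU with total RNA, 3 of 15 genes of mitochondrial DNA transcription and replication were higher and 7 lower, and 1 of 22 genes of mitochondrial RNA processing was higher and 14 lower. The shares stand beside 30.4% and 33% of all genes. The medians were -0.47 and -0.64, against 0.05 for all genes. Polrmt was at -2.94, the mitochondrial DNA polymerase Polg at -1.63 and the helicase Twnk at -1.25, while the transcription factor Tfb2m was at 1.95. Hsd17b10, a subunit of mitochondrial RNase P, was at -4.39, Fastk at -2.39, the RNA-binding partner Slirp at -1.69 and Elac2, which cuts transfer RNA 3′ ends, at -1.57. Of 12 translation genes, 3 were higher (among them Taco1, the translational activator of mt-Co1, at 1.32, and the release factor Mtrf1l at 1.22) and 4 lower (among them the elongation factor Tsfm at -1.62 and the insertase Oxa1l at -1.68). Among 8 nuclear regulators, 4 were higher, with Nrf1 at 1.69, Ppargc1b at 1.79 and Gabpb1 at 0.88, and 2 lower, with Esrra at -1.51. In each of the 4 mutant comparisons and in the comparison of the WT lines, 0 genes of these 4 lists were called by edgeR, and list medians lay between -0.10 and 0.11.

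The 2 WT lines were compared with each other in new RNA. The Tir1/BirA line was above the plain line for every gene in every project. The ratio was large in projects 1 and 2 and small in project 3. On the log2 scale of CPM, the ratios spanned 0.53 to 0.85 in project 1, 0.40 to 0.67 in project 2 and 0.09 to 0.34 in project 3. The mt-Nd2 ratio was the highest in projects 1 and 2 (0.85 and 0.67) and 0.10 in project 3. mt-Nd6 had the lowest ratio in projects 1 and 2 (0.53 and 0.40) and the highest in project 3 (0.34).

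With project as a block, the fitted log2 fold changes of the Tir1/BirA line over the plain line were 0.42 to 0.54, with a median of 0.47 against -0.01 for all genes. At an unadjusted p under 0.05 there were 7 of 7 genes, a count with no share of all genes beside it. After adjustment over 14181 genes 1 was called, mt-Nd6, at 0.42 ± 0.06 (edgeR adjusted p = 0.0161, n = 3 against 3, higher in 3 of 3 projects). The 3 libraries on each side are 1 line sequenced in 3 projects, so the p-value speaks to these lines only. Of all genes, 0.437% were called higher and 0.804% lower. mt-Co1 came next, at 0.43 ± 0.09 (adjusted p = 0.0674), and mt-Nd2, with the largest fitted change (0.54 ± 0.15), had an adjusted p of 0.218. The count depended on the project. It was 7 without the plain or the Tir1/BirA library of project 3 (0.222% and 0.246% of all genes called higher), 5 without one or the other of project 1 (3.97% and 3.87%) and 0 without either of project 2 (0% in both). It was 6 with DESeq2 (0.691% of all genes), 7 with no filter on low counts (1.56%), 3 with spike-in scaling (0.494%) and 0 with no project term (0.0141%). In total RNA, sequenced once per line, the Tir1/BirA line was also above the plain line for each gene, without a replicate.

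Both lines serve as the WT of every mutant comparison. A mutant effect on these genes therefore depends on which line it is set against, and each mutant is given below with both WT libraries, then with each one alone. In a fit with 1 WT library, that library is assumed to vary like the 2 clones. The 4 comparisons use WT libraries of their own project, and AID-Yeats2 and Supt7l-/- share theirs.

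**Figure D2:**
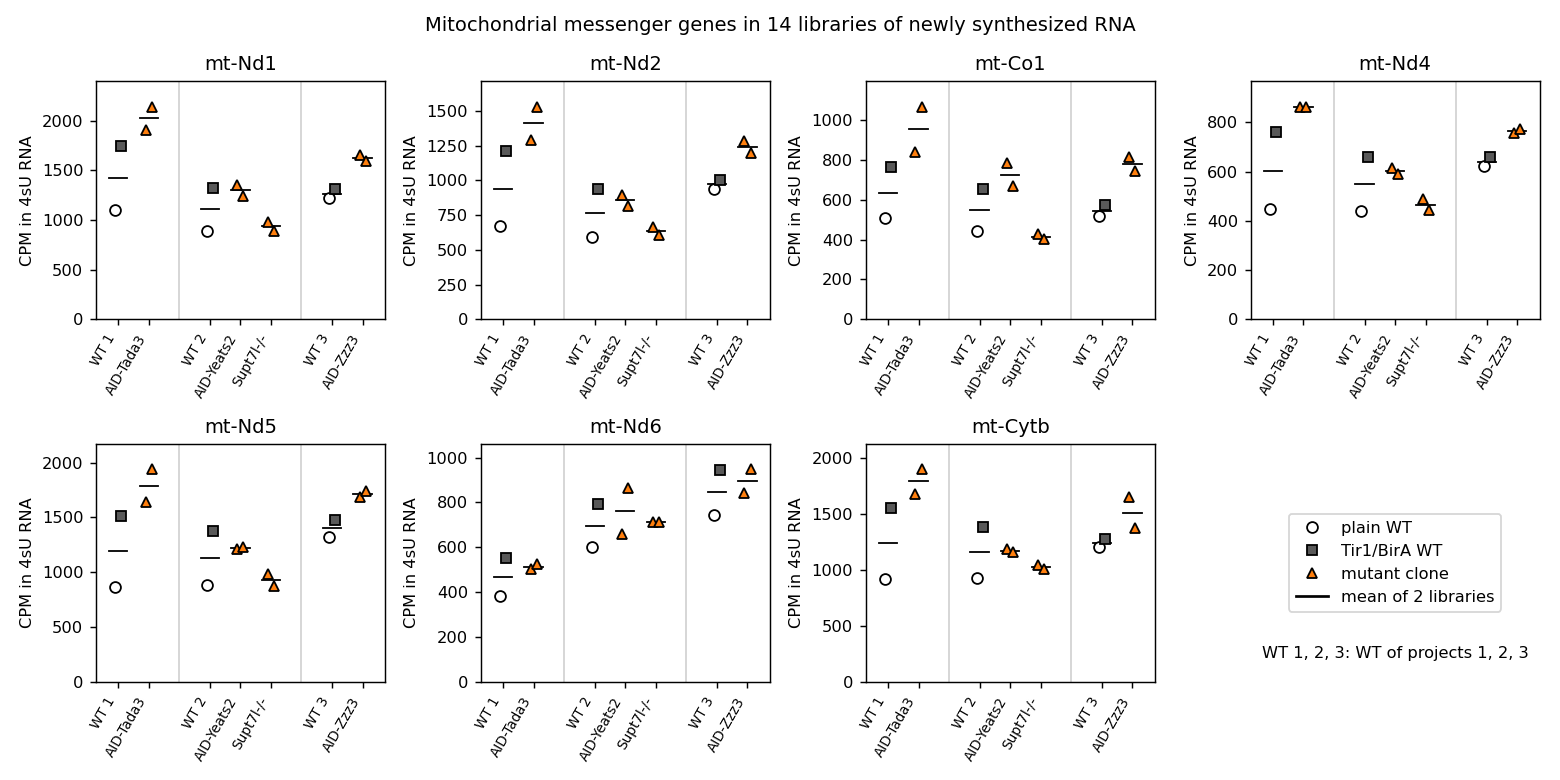
CPM of each gene in the 14 4sU libraries, scaled by TMM within each project, with the plain WT line (circle), the Tir1/BirA WT line (square) and the mutant clones (triangles), and a line at the mean of 2 libraries. Circles lie below squares in every panel and project, and for the 6 heavy-strand genes the gaps are smallest in project 3.

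AID-Tada3 cells had the highest levels of the heavy-strand messages in project 1. Both clones were above both WT lines for the heavy-strand genes and not for mt-Nd6. The share of all genes placed so was not computed, and these genes share a transcript, so this is a description. Of the 7, 0 passed the test, and 0% of all 15099 genes were called higher and 0.0331% lower. At an unadjusted p under 0.05 there were 0 of the 7, and DESeq2 also called 0. mt-Nd1 had 1096 and 1741 CPM in plain and Tir1/BirA WT, and 1905 and 2141 CPM in the clones. mt-Nd2 had 670 and 1209 CPM in WT and 1290 and 1530 CPM in the clones. mt-Co1 had 506 and 765 CPM in WT and 841 and 1067 CPM in the clones. In all 3 genes the gap between the WT lines was larger than the gap from the higher WT line to the lower clone.

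For mt-Nd4 the WT values were 448 and 760 CPM, and the clones were level at 864 and 864 CPM. For mt-Nd5 they were 865 and 1513 CPM, with 1641 and 1939 CPM in the clones. For mt-Cytb they were 925 and 1554 CPM, with 1685 and 1902 CPM in the clones. These 3 repeat the pattern of the first 3. mt-Nd6 had 383 and 552 CPM in WT, and its clones, at 501 and 527 CPM, lay between the WT lines. The fitted log2 fold changes were 0.51 to 0.59 for the heavy-strand genes, with mt-Co1 at 0.59 ± 0.23 (adjusted p = 0.623), and 0.14 ± 0.17 for mt-Nd6 (adjusted p = 0.878). The median over the 7 was 0.53, against 0.00 for all genes.

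Against the plain line alone, 7 of 7 genes were called higher, with log2 fold changes of 0.43 (mt-Nd6) to 1.08 (mt-Nd2), where that fit called 6.56% of all genes higher. Against the Tir1/BirA line alone, 0 of 7 were called (0.476% of all genes higher), with mt-Nd6 at -0.10 and the others at 0.18 to 0.32. Spike-in scaling, which moved the median of all genes to -0.16, called 3 higher, with 0.172% of all genes.

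In AID-Yeats2 cells the 7 genes lay between or near the 2 WT lines, and 0 of 7 passed the test, where 2.28% of 14239 genes were called higher and 1.55% lower. At an unadjusted p under 0.05 there were 0 of the 7, and DESeq2 also called 0. Only for mt-Co1 were both clones above both WT lines. It had 444 and 653 CPM in plain and Tir1/BirA WT of project 2, and 784 and 667 CPM in the AID-Yeats2 clones. The log2 fold change was 0.41 ± 0.22 (adjusted p = 0.426). mt-Nd1 had 893 and 1321 CPM in WT and 1355 and 1243 CPM in the clones, and mt-Nd2 had 589 and 940 CPM in WT and 893 and 817 CPM in the clones. Here the clones lay inside or just beyond the span of WT.

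mt-Nd4 had 441 and 660 CPM in WT and 613 and 590 CPM in AID-Yeats2. mt-Nd5 had 881 and 1374 CPM in WT and 1212 and 1234 CPM in AID-Yeats2. mt-Cytb had 928 and 1388 CPM in WT and 1184 and 1162 CPM in AID-Yeats2. All 3 lay inside the span of WT. For mt-Nd6 the WT values were 600 and 794 CPM, and the clones differed from each other, at 660 and 866 CPM. The fitted changes of the 6 genes other than mt-Co1 were 0.03 to 0.24, and the median of the 7 was 0.14 against 0.01 for all genes. Against the plain line alone 7 of 7 were called higher (0.34 to 0.71), with 7.89% of all genes. Against the Tir1/BirA line alone 2 were called lower, mt-Nd5 at -0.17 and mt-Cytb at -0.24, with 7.56% of all genes, while mt-Co1 was at 0.15. Under spike-in scaling the median of all genes moved to -0.50, the members' values were -0.10 (mt-Co1) to -0.48 (mt-Cytb), and mt-Cytb was called lower, as were 43.5% of all genes. The authors' deposited log2 fold changes for AID-Yeats2 were also below 0 for all 7, from -0.09 (mt-Co1) to -0.43 (mt-Cytb).

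Supt7l-/- cells had levels close to the plain WT line and below the Tir1/BirA line. Of the 7 genes, 0 passed the test, where 0.666% of 13955 genes were called higher and 1.22% lower. At an unadjusted p under 0.05 there were 0 of the 7, and DESeq2 also called 0. mt-Co1 was the one gene with both clones, at 429 and 400 CPM, below both WT libraries, and its log2 fold change was -0.40 ± 0.21 (adjusted p = 0.465). The clones had 984 and 891 CPM of mt-Nd1 and 662 and 609 CPM of mt-Nd2. Each pair lay near the lower end of the WT span given above for the same project.

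In the same clones mt-Nd4 had 488 and 443 CPM, mt-Nd5 had 988 and 878 CPM, and mt-Cytb had 1050 and 1010 CPM. mt-Nd6, at 712 and 714 CPM, lay in the middle of the WT span. The fitted changes were -0.17 to -0.40 for the heavy-strand genes and 0.03 ± 0.13 for mt-Nd6. The median was -0.24 against 0.00 for all genes. Against the Tir1/BirA line alone 7 of 7 were called lower, from -0.16 (mt-Nd6) to -0.66 (mt-Co1), with 9.32% of all genes. Against the plain line alone 1 was called higher, mt-Nd6 at 0.25, with 1.91% of all genes, and mt-Co1 was at -0.10. With spike-in scaling the median of all genes moved to -0.36, and 1 of 7 was called lower, mt-Co1, with 2.74% of all genes. In the authors' deposited table for Supt7l-/-, 5 of the 7 had an adjusted p under 0.05, all lower, from -0.70 for mt-Co1 to -0.55 for mt-Nd1. The share of all genes under 0.05 there was not computed, and no member was under 0.05 in the authors' values for the other mutants. For each gene the authors' Supt7l-/- value lay below the TMM value given above, and the reason was not tested. In the authors' deposited table mt-Cytb (-0.48) and mt-Nd6 (-0.29) did not pass.

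The ribosomal RNAs of the same genome moved apart from the messages in Supt7l-/- cells. mt-Rnr1, the small ribosomal RNA, had 59 and 60 counts in WT and 109 and 135 in the clones, and rose by a log2 fold change of 1.14 ± 0.19 (edgeR adjusted p = 0.0165, both clones above both WT). mt-Rnr2, the large one, had 93 and 105 counts in WT and 160 and 221 in the clones, and rose by 1.04 ± 0.18 (adjusted p = 0.0187). These counts are small for ribosomal RNA, in libraries whose ribosomal RNA was not removed per the labels' protocols. Whether ribosomal reads were filtered before counting is not given in the sources used here, so it is uncertain whether these counts follow the amount of ribosomal RNA. AID-Yeats2 clones had 73 and 163 counts of mt-Rnr1 and 126 and 276 of mt-Rnr2, with log2 fold changes of 1.00 ± 0.38 and 1.03 ± 0.41 that did not pass (adjusted p = 0.221 and 0.280). In AID-Zzz3 they were 0.51 and 0.83 (adjusted p = 0.371 and 0.208). Whether Supt7l-/- differs from these mutants was not tested. Of the transfer RNAs, 0 were called in any mutant by edgeR. Of 3 trophoblast markers tested in Supt7l-/- cells, Gata3 was called higher (1.29), and Cdx2 (-0.78) and Eomes (0.21) did not pass. Of the fibroblast markers tested, Col1a2 was called lower (-3.81), and Col1a1 (-1.18) did not pass. Their sums stayed at the low levels given above, and their part in these values was not tested.

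AID-Zzz3 cells came from the project in which the WT lines lay closest. Under TMM scaling their heavy-strand messages were above WT, though none passed the adjusted test. Both clones were above both WT lines for the heavy-strand genes and not for mt-Nd6. The heavy-strand genes also had an unadjusted p under 0.05 by edgeR. No share of all genes stands beside either trait, and these genes share a transcript, so both are descriptions. After adjustment 0 of 7 passed by edgeR (DESeq2 called 1, with 1.17% of all genes higher), where edgeR called 0.681% of 14529 genes higher and 0.303% lower. mt-Co1 had 516 and 573 CPM in plain and Tir1/BirA WT of project 3 and 815 and 745 CPM in the clones, a log2 fold change of 0.52 ± 0.10 (adjusted p = 0.0703). mt-Nd1 had 1218 and 1307 CPM in WT and 1656 and 1588 CPM in the clones, with 0.36 ± 0.10 (adjusted p = 0.152). For both genes the clones lay above WT by more than the WT lines lay apart.

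mt-Nd2 had 936 and 1004 CPM in WT and 1281 and 1198 CPM in AID-Zzz3, and mt-Nd4 had 621 and 660 CPM and 756 and 774 CPM. mt-Nd5 had 1320 and 1480 CPM in WT and 1687 and 1738 CPM in AID-Zzz3. mt-Cytb had 1206 and 1280 CPM in WT and 1657 and 1372 CPM in AID-Zzz3. Here too the groups did not overlap. mt-Nd6 had 746 and 947 CPM in WT and 840 and 948 CPM in the clones, which overlapped, and its change was 0.08 ± 0.13 (adjusted p = 0.854). The median of the 7 was 0.29 against 0.00 for all genes. Against the plain line alone 1 was called higher, mt-Co1 at 0.59, with 1.85% of all genes. Against the Tir1/BirA line alone 0 were (0.913% of all genes), with mt-Co1 at 0.44. Scaled to the spike-in, all genes had a median of -0.36 and the members one of -0.07. This scaling shifts every gene alike, and it put mt-Nd2, mt-Nd4, mt-Nd5, mt-Nd6 and mt-Cytb below 0. The authors' deposited values were below 0 for the same genes, from -0.0067 (mt-Nd2) to -0.26 (mt-Nd6). They were 0.0008 for mt-Nd1 and 0.14 for mt-Co1. Member counts per spike-in count were 0.0917 and 0.0938 in WT and 0.0904 and 0.0884 in the clones.

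**Figure D3:**
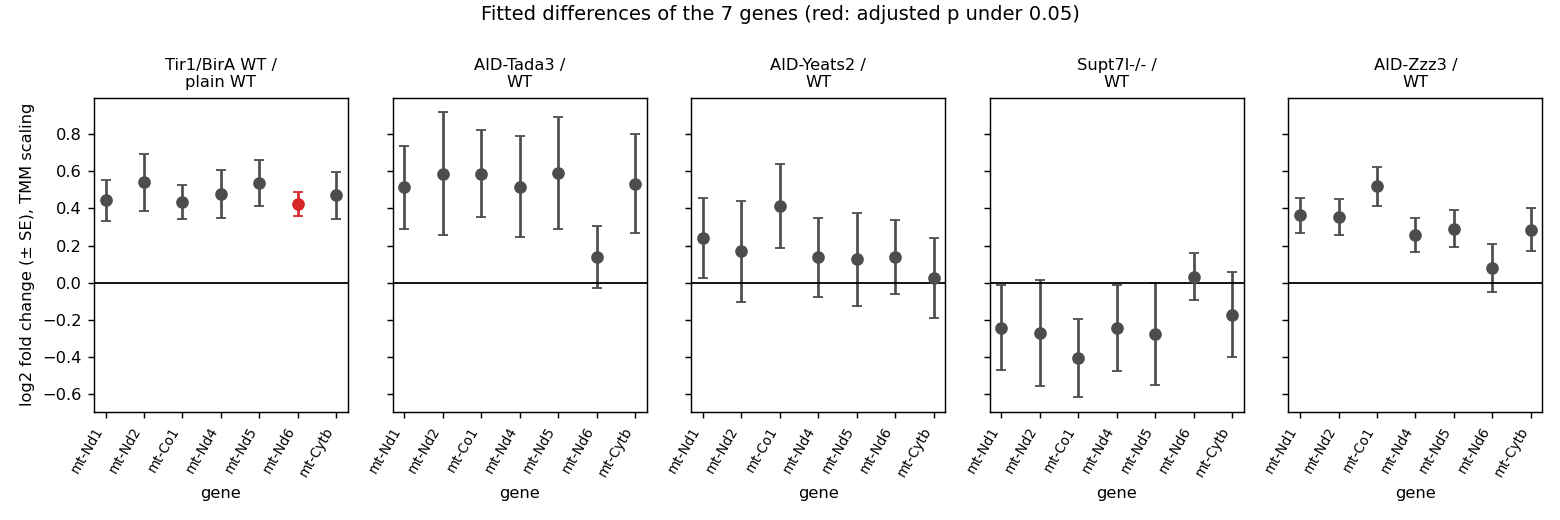
Log2 fold change of each gene (TMM scaling, points, with standard error from edgeR) for the Tir1/BirA line over the plain line and for each mutant over its WT. The 1 red point, mt-Nd6 between the WT lines at 0.42, had an adjusted p under 0.05. In AID-Tada3 and AID-Zzz3 mt-Nd6 has the lowest value of the 7, at 0.14 and 0.08.

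**Figure D4:**
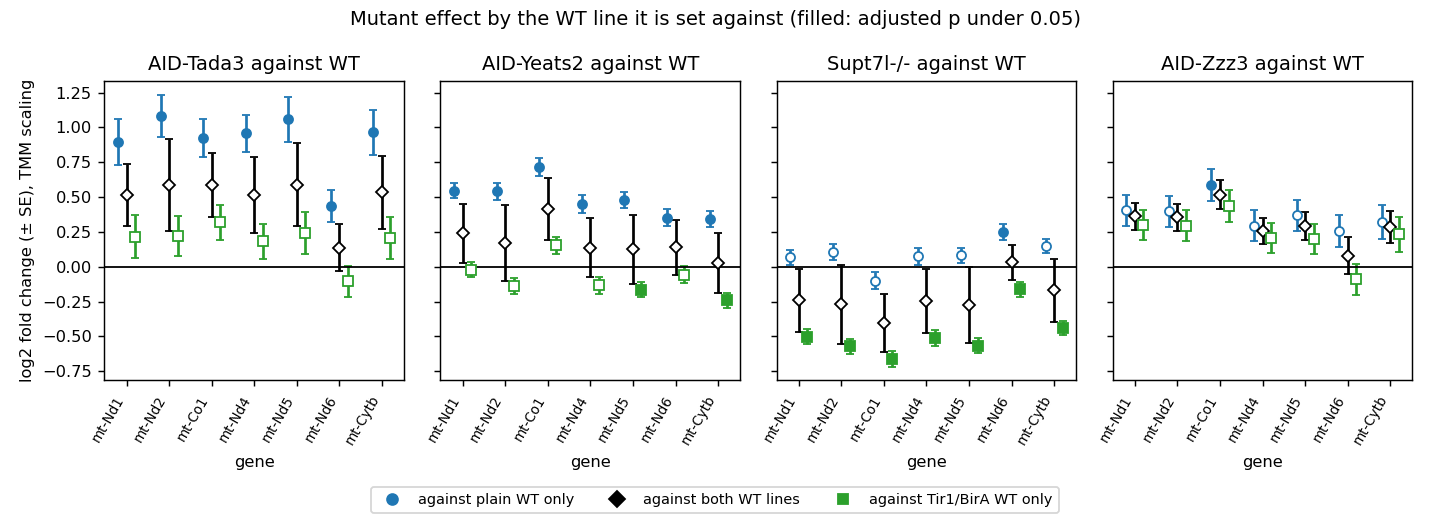
Log2 fold change of each gene in the 4 mutants against the plain WT line alone (circles), both lines (diamonds) and the Tir1/BirA line alone (squares), with standard errors and filled symbols at an adjusted p under 0.05. The choice of line moves the values by a wide margin in projects 1 and 2, where 6 of 7 genes, all but mt-Co1, change sign in AID-Yeats2 and in Supt7l-/-. It moves them less in AID-Zzz3, where mt-Nd6 changes sign.

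The 4 mutant effects were compared with each other in a fit of the 14 4sU libraries. A test of unequal effects by edgeR's quasi-likelihood method called 0 of 7 genes, where 6.55% of 15426 genes were called. mt-Co1 was the one gene at an unadjusted p under 0.05 (edgeR adjusted p = 0.159), with changes of 0.59 in AID-Tada3, 0.41 in AID-Yeats2, 0.52 in AID-Zzz3 and -0.40 in Supt7l-/- in the separate fits. mt-Nd6 had the highest adjusted p of the 7 (0.981). With spike-in scaling 6 of 7 were called, all but mt-Nd6, and 7.92% of all genes. Without the Tir1/BirA library of project 1, 3 were called (mt-Nd1, mt-Co1 and mt-Nd4), and 11.9% of all genes. No call was made without any other single library.

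The members were then compared with each other. Over the 14 4sU libraries, pairs of heavy-strand genes had Pearson correlations of 0.86 to 0.99, and pairs with mt-Nd6 0.51 to 0.69. These describe log2 CPM after subtraction of the project's WT mean, and the libraries share projects, depth and WT lines. The light-strand message was also expressed per 100 counts of the 6 heavy-strand genes, a ratio within a library that does not depend on scaling. That ratio was 0.0695 and 0.107 in total RNA. In 4sU RNA it was 8.50 and 7.32 in WT of project 1 and 6.10 and 5.58 in AID-Tada3. In project 2 it was 14.4 and 12.5 in WT, 10.9 and 15.2 in AID-Yeats2 and 15.5 and 16.9 in Supt7l-/-. In project 3 it was 12.8 and 15.0 in WT and 10.7 and 12.8 in AID-Zzz3. Both clones were below both WT libraries in AID-Tada3 and AID-Zzz3 and above them in Supt7l-/-, while AID-Yeats2 overlapped WT. In AID-Zzz3 the higher clone and the lower WT library were 12.78 and 12.82, nearly level. The ratio of WT itself differed by project, and project 1 used another spike-in species than projects 2 and 3. Scores over several genes are given as values without a test.

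**Figure D5:**
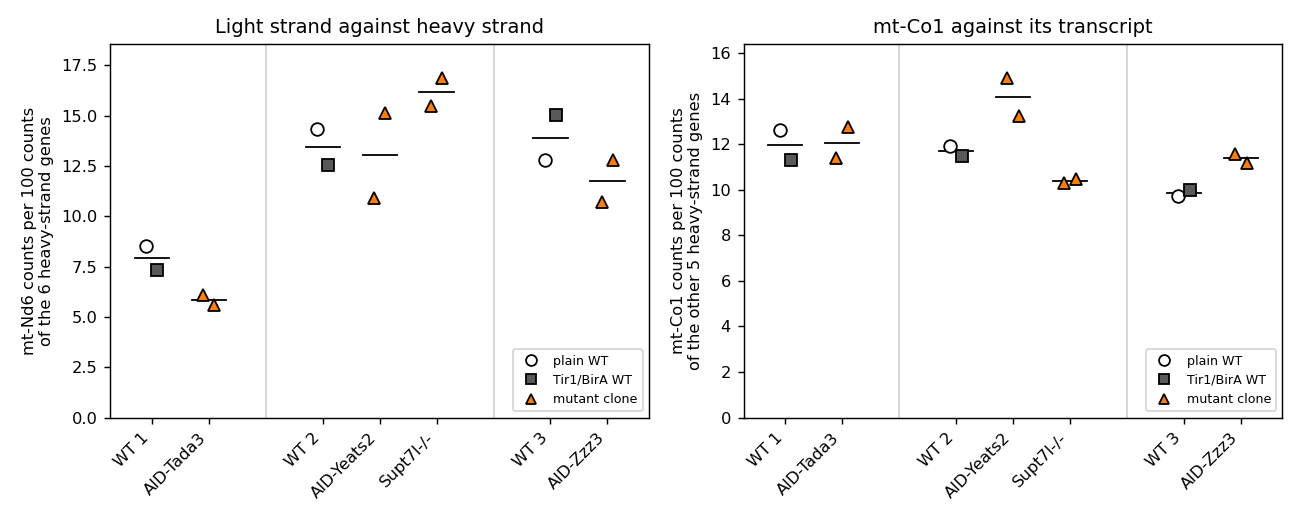
Left, mt-Nd6 counts per 100 counts of the 6 heavy-strand genes. Right, mt-Co1 counts per 100 counts of the other 5 heavy-strand genes, in each 4sU library with the mean of 2 libraries as a line. On the right AID-Yeats2 and AID-Zzz3 lie above the WT of their project, Supt7l-/- lies below and AID-Tada3 overlaps.

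mt-Co1 was also set against the rest of its own transcript. Per 100 counts of the other 5 heavy-strand genes it had 11.9 and 11.5 counts in WT of project 2, 14.9 and 13.2 in AID-Yeats2 and 10.3 and 10.5 in Supt7l-/-. In project 3 it had 9.74 and 10.0 in WT and 11.6 and 11.2 in AID-Zzz3. In project 1 the values overlapped, with 12.6 and 11.3 in WT and 11.4 and 12.7 in AID-Tada3. The ratio of the clones' mean to the WT mean was 1.20 in AID-Yeats2, 1.15 in AID-Zzz3, 0.887 in Supt7l-/- and 1.01 in AID-Tada3. Both lines of WT were close to each other by this measure in projects 2 and 3, though in project 2 they differed in level. In total RNA mt-Co1 had 289 and 255 counts per 100 of the other 5. The part of its nuclear copies in these ratios was not tested.

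As a share of all mouse counts, the 7 genes made up 0.528% and 0.602% in total RNA and 0.490% and 0.800% in WT 4sU RNA of project 1. They made up 0.858% and 1.02% in AID-Tada3. In project 2 the share was 0.469% and 0.703% in WT, 0.668% and 0.662% in AID-Yeats2, and 0.538% and 0.497% in Supt7l-/-. In project 3 it was 0.650% and 0.713% in WT and 0.878% and 0.842% in AID-Zzz3. The widest 95% Wilson interval of these shares reached 0.00646 percentage points to either side, so counting error was small beside the difference between WT lines. Set against spike-in counts, the mean log2 ratio to WT changed from 0.34 to -0.05 in AID-Zzz3 and from 0.21 to -0.31 in AID-Yeats2, and was 0.40 in AID-Tada3 and -0.55 in Supt7l-/-.

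Of 9536 nuclear protein-coding genes with a mean of at least 5 CPM, the 5 whose levels followed the mean of the 7 genes most closely were Nphs1 (Pearson r 0.97), D230025D16Rik (0.95), Lifr (0.95), Itpka (0.94) and Cyp1a1 (0.92). The measure was the correlation of log2 CPM after subtraction of the project's WT mean over 14 4sU libraries, and these libraries share projects and WT lines. Lifr encodes the receptor of leukaemia inhibitory factor, and Cyp1a1 is a cytochrome P450 induced through the aryl hydrocarbon receptor.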

How the data were processed

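Values came from 16 libraries in 3 projects. Read counts of mouse genes and of spike-in genes were deposited unnormalized, with a normalized signal per library, and, for each mutant, their own log2 fold change against WT with its p-value, per the file headers. The signal was not used. The submitters' processing notes name STAR 2.5.3a and Bowtie2 2.2.8 (aligners), HTSeq 0.6.1p1 (a counter), DESeq2 1.16.1, cutadapt 1.10 and bcl2fastq 2.17.1.14. The mouse build they name is mm10, beside builds of the spike-in species.

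Counts of all genes were fitted here with R 4.3.3, edgeR 4.0.16 and limma 3.58.1. Genes passed filterByExpr (minimum count 10), libraries were scaled by TMM, and genes were tested by the robust quasi-likelihood test with Benjamini-Hochberg adjustment over all genes tested, called at 0.05. Each adjusted p is from this test unless another source is named. Mutants were compared with the 2 WT libraries of their project without a block, since clone numbers have no WT counterpart. The WT lines were compared with project as a block, over the 25257 genes shared by the tables. Total and 4sU RNA came from the same 2 lines, so they can be paired: line differences correlated between them (r = 0.489 across 14494 genes).

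Alternatives were spike-in scaling (spike genes with at least 10 counts), DESeq2 1.42.0 size factors and test, no filter, a filter of 50 counts, a joint fit, the replicate block and leaving out each library. A fit of the 6 4sU libraries of project 2 was added after the data were seen. The rest used numpy 2.4.6, pandas 2.3.3 and Python 3.11.15, and figures matplotlib 3.10.9. Sequences and strands are from GENCODE M21. The fits of 4sU against total RNA, of the WT lines and of AID-Yeats2 were run on simulated counts. Their spread was set the same for every gene and not taken from the libraries. These runs therefore do not check the fits under the real spread, nor the other fits. Counts differed between replicates by more than sampling noise in every group. Members, gene lists and markers were chosen with earlier results of these data known. The text names all members, the other mitochondrial rows, up to 4 called genes of each nuclear list with the smallest p, the nuclear copies and the 5 nuclear genes most like the members. Gata3 and Col1a2 were named after their values were seen.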

Additional observations from a re-analysis of the deposited data

Results flagged for a closer look

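Gm28438, a nuclear copy of a mitochondrial gene on chromosome 1 (24612775 to 24613119, mm10) outside the comparisons above, had 567 counts over the 16 libraries. It had 7 and 10 counts in total RNA and 13 to 80 in 4sU libraries, above the 3 counts that a count of 0 allows. The other nuclear copies in the same region that the tables list, Gm10925, Gm28437 and Gm29216, had at most 3 counts in any library whose table lists them. In 4sU against total RNA of WT cells Gm28438 had a log2 fold change of 1.70 ± 0.41 (edgeR adjusted p = 0.00850). Whether its reads came from the nuclear or the mitochondrial copy was not tested.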

How the results depend on the processing

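With the cell line as a replicate block, 6 of 7 genes were higher and 1 lower in 4sU than in total RNA, as without it. The comparison of the WT lines had the project as its block, and the mutant comparisons allowed no paired fit, since clone numbers have no WT counterpart. Spike-in scaling left 0 lower there and called 3 higher between the WT lines, 3 higher in AID-Tada3, 1 lower in AID-Yeats2, 1 lower in Supt7l-/- and 6 genes unequal between mutants. It turned the sign of mt-Nd6 in AID-Tada3 (-0.0026) and Supt7l-/- (-0.32), of mt-Nd1 (-0.27), mt-Nd2 (-0.34), mt-Co1 (-0.10), mt-Nd4 (-0.37), mt-Nd5 (-0.38), mt-Nd6 (-0.35) and mt-Cytb (-0.48) in AID-Yeats2, and of mt-Nd2 (-0.0076), mt-Nd4 (-0.10), mt-Nd5 (-0.069), mt-Nd6 (-0.28) and mt-Cytb (-0.0776) in AID-Zzz3. With no filter, mt-Cytb in AID-Yeats2 was at -0.0016, and 7 genes were higher between the WT lines, where 1.56% of all genes were. That setting also called 2 higher in AID-Tada3 and 1 in AID-Zzz3. These counts have no share of all genes beside them and are not read further. DESeq2 called 6 higher between the WT lines and 1 in AID-Zzz3, and the fit with no project term called 0. The cause was not tested.

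With 1 library left out, the number higher ranged from 5 to 6 in 4sU against total RNA, from 0 to 7 between the WT lines, in AID-Tada3 and in AID-Yeats2, and from 0 to 1 in Supt7l-/- and AID-Zzz3. The number lower ranged from 0 to 2 in AID-Yeats2 and from 0 to 7 in Supt7l-/-, and the number unequal from 0 to 3. Values that changed sign ranged from -0.10 to 0.43 for mt-Nd6 in AID-Tada3 and from -0.0909 to 0.26 in AID-Zzz3. In AID-Yeats2 they ranged from -0.0223 to 0.55 (mt-Nd1), -0.14 to 0.54 (mt-Nd2), -0.13 to 0.45 (mt-Nd4), -0.17 to 0.48 (mt-Nd5), -0.0749 to 0.35 (mt-Nd6) and -0.24 to 0.34 (mt-Cytb). In Supt7l-/- they ranged from -0.50 to 0.0687 (mt-Nd1), -0.57 to 0.11 (mt-Nd2), -0.51 to 0.0752 (mt-Nd4), -0.57 to 0.0811 (mt-Nd5), -0.16 to 0.25 (mt-Nd6) and -0.44 to 0.15 (mt-Cytb). The fit of all 6 4sU libraries of project 2 called 0 in either mutant by edgeR, with 0 of 7 at an unadjusted p under 0.05. Depth limits mt-Nd6 in total RNA, at 18 and 41 counts, and the ribosomal and transfer RNA rows.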

Other observations

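The transfer RNA rows also divide by strand. In 4sU RNA, light-strand transfer RNAs held 36.1% and 29.5% of transfer RNA counts in WT of project 1, and 28.8% and 21.8% in AID-Tada3. In project 2 they held 52.8% and 44.2% in WT, 43.6% and 51.5% in AID-Yeats2, and 49.2% and 50.8% in Supt7l-/-. In project 3 they held 40.1% and 45.6% in WT, and 32.5% and 39.1% in AID-Zzz3. Both clones were below both WT libraries in AID-Tada3 and AID-Zzz3, as for mt-Nd6 per heavy-strand count. The nearest libraries were almost level, at 28.8% against 29.5% and 39.1% against 40.1%. In Supt7l-/- the clones lay within the WT span, whereas mt-Nd6 per heavy-strand count was above both WT libraries. AID-Yeats2 overlapped WT by both measures. These rows rest on 354 to 1502 counts per library.

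Ribosomal RNA per 1000 counts of the 7 genes was 0.940 and 1.09 in WT of project 1, 3.08 and 2.47 in WT of project 2 and 2.25 and 2.45 in WT of project 3. It was 5.76 and 7.58 in Supt7l-/-, 3.07 and 6.77 in AID-Yeats2, 3.55 and 2.65 in AID-Zzz3 and 0.975 and 0.853 in AID-Tada3.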
